A study of Mus musculus with 4 samples.

Results

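Complement genes were followed in leukocytes of the healthy mouse liver. The set holds 10 of the 32285 genes in each count matrix, chosen by name, though with earlier results of these data known. Its genes are the C1q chains C1qa, C1qb and C1qc, the components C3, C4b and C6, properdin (Cfp), and the receptors C3ar1, C5ar1 and Vsig4. The cells were CD45+ liver cells of healthy PA-GFP C57BL/6 mice, with photoactivation in every sample, and were profiled by single-cell RNA sequencing in 2 libraries of the portal vein (PV) zone and 2 of the central vein (CV) zone. PA-GFP is a fluorescent protein that light switches on, so that cells of an illuminated area can be sorted. Values are unique molecular identifiers (UMIs), each a counted transcript molecule read near the 3′ end, and levels are UMIs per 1000000 UMIs of a sum of cells (CPM).

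After filtering, 333 cells remained in PV-1, 512 in PV-2, 372 in CV-1 and 376 in CV-2, 1593 in all, with median depths of 5369 to 6317.5 UMIs per cell. The labels do not tie the libraries to separate mice, so the p-values rest on the spread between libraries, which may be technical. A UMI of Ptprc, the gene of CD45, was found in 92.0 to 97.6% of the cells of each library. The libraries shared barcodes: 282 of 1939 occurred in several, and each of these was kept only where at least 70% of its UMIs lay. This step left 4 Kupffer-gated cells in PV-1, 118 in PV-2, 55 in CV-1 and 39 in CV-2. With the shared barcodes kept there were 64, 147, 91 and 83.

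Complement is a cascade of plasma proteins that tags particles for uptake and can pierce membranes. C1q is the recognition part of the classical pathway and is built of A, B and C chains. It leads to cleavage of C4 and then C3, whose fragments coat targets, while properdin steadies the C3-cleaving enzyme of the alternative pathway. C6 is one of the components of the membrane attack complex. The small fragments C3a and C5a signal through the receptors C3ar1 and C5ar1, and Vsig4, also known as CRIg, binds C3 fragments on macrophages. The liver is known as the main source of most plasma complement, which hepatocytes make, and its resident macrophages, the Kupffer cells, use Vsig4 to capture bacteria from the blood.

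Positions are given on GRCm38 with GENCODE vM21 gene models. C1qa (chr4:136895917-136898803), C1qb (chr4:136880129-136886187) and C1qc (chr4:136889804-136893065) are neighbours on the minus strand and span 18.7 kb. C3 (chr17:57203970-57228136) and C4b (chr17:34728380-34743882) lie apart on chromosome 17, both on the minus strand. C6 is on the plus strand at chr15:4727175-4814967. Cfp (chrX:20925454-20931555) and Vsig4 (chrX:96247203-96293438) lie on the minus strand of chromosome X. C3ar1 is at chr6:122847138-122856161 and C5ar1 at chr7:16246743-16259540, both on the minus strand.

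Promoter sequences from RefSeq (GRCm38.p6) were at hand for 8 of the 10 genes, not for C1qa and C4b. They are shown here for the C1q chains, which both macrophage classes expressed, and for C6 and Vsig4, which were found almost wholly in Kupffer-gated cells. Each is the stretch before the gene, 5′ to 3′ on the gene's strand, without bases inside the GENCODE model: 250 bases for C1qb (chr4:136886201-136886450), 99 for C1qc (chr4:136893066-136893164), 215 for C6 (chr15:4726960-4727174) and 250 for Vsig4 (chrX:96293439-96293688). Capitals mark GAGGAA, the core of the PU box read by the myeloid factor PU.1, or its reverse TTCCTC, and TGCTGA, a half-site of MAF factors, or its reverse TCAGCA.
C1qb: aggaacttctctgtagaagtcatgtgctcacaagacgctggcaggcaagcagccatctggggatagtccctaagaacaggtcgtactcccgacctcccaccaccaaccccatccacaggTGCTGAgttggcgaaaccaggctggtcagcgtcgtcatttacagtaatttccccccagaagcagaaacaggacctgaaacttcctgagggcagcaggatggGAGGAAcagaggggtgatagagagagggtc
C1qc: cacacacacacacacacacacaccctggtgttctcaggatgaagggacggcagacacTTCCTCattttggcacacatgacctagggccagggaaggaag
C6: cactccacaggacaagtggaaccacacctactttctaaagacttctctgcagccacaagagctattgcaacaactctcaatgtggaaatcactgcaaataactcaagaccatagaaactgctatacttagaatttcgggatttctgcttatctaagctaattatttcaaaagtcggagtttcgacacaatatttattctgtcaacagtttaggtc
Vsig4: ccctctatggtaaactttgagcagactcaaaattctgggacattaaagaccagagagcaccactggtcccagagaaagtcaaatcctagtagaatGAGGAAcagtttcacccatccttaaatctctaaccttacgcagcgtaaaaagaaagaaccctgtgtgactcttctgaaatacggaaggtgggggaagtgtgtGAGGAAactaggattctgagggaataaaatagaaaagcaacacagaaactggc

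GAGGAA or its reverse stood in the 250 bases before the RefSeq start of C1qb, C1qc and Vsig4, 3 of the 8 genes, and in 23.3% of 32851 windows of that length. In Vsig4 it came at 2 places, with its first base 155 and 53 bases before the start, and in C1qb at 30 bases. TGCTGA or its reverse stood before C1qb, C3, C3ar1 and C5ar1, 4 of the 8, and in 16.1% of windows. TGGGAA, the core read by RBPJ, or its reverse TTCCCA stood before none of the 8 and in 21.6% of windows. The C6 window held none of these letters on either strand. The motifs do not overlap each other in the printed stretches, and such a match is a description of letters, not of binding.

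Cells were placed into classes by counts of detected markers, 8 per list, with none of the 10 complement genes in any list. The Kupffer gate asked for at least 3 Kupffer markers and held 216 cells, and other macrophages, with at most 1 such marker, held 43. The Kupffer markers summed to 15080 to 16860 CPM in the Kupffer gate and to 19.8 to 194 in the other macrophages, while general macrophage markers summed to 4324 to 4986 in the Kupffer gate and 2493 to 4710 in other macrophages. Neutrophils numbered 86, type 1 dendritic cells (cDC1) 79, type 2 dendritic cells (cDC2) 19, plasmacytoid dendritic cells (pDC) 31, T cells 790 and B cells 150, and 90 cells stayed ungated. Median depths were 6628 UMIs in the Kupffer gate, 7751 in other macrophages, 3131 in neutrophils, 6057 in T cells and 3636.5 in B cells.

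**Figure D1:**
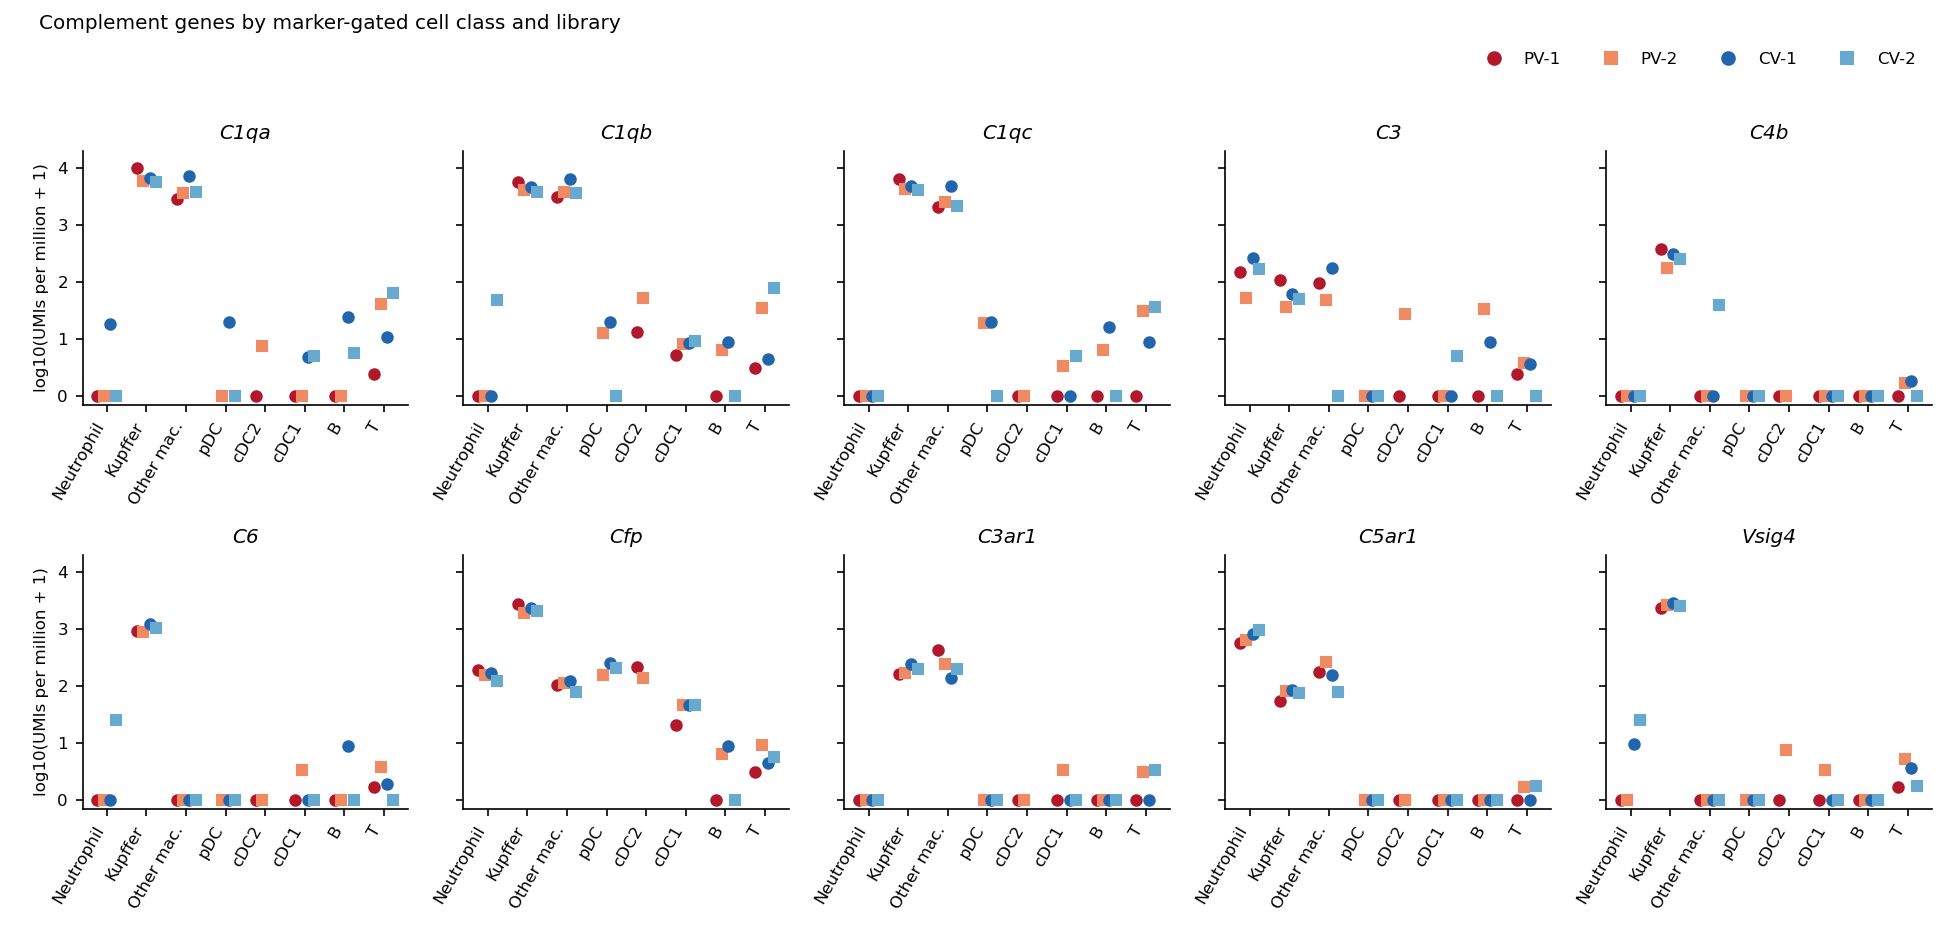
Level of each of the 10 complement genes (vertical axis, log10 of CPM plus 1) in sums of cells per marker-gated class and library, 1 point per library. C6, C4b and Vsig4 stand high in the Kupffer gate, the C1q chains in both macrophage classes, and C5ar1 is highest in neutrophils.

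The Kupffer gate, with 216 of the 1593 cells, held most UMIs of 8 of the 10 genes. Its share of all UMIs in the 1593 cells was 94.4% for Vsig4, 92.7% for C6, 81.3% for C4b, 80.4% for C1qc, 79.1% for C1qa, 74.2% for C1qb and 68.4% for C3ar1. For Cfp, 3507 of 4143 UMIs were in that gate. C3 and C5ar1 were the exceptions, with 24.6% and 29.8%. The 86 neutrophils held 45.5% of the C5ar1 UMIs and the 90 ungated cells 41.3% of the C3 UMIs. With sums of cells as samples, all 10 genes were higher in the Kupffer gate than in T and B cells (edgeR's quasi-likelihood test, adjusted p from 1.56e-32 for Cfp to 1.69e-07 for C3), where 31.2% of 6688 genes were higher. The smallest difference was that of C3, 3.07 ± 0.47 on the log2 scale (SE), and that of Vsig4 was 11.20 ± 0.32. DESeq2, with which 30.0% of genes were higher, did not call C4b or C3ar1 here (adjusted p = 0.172 and 0.223).

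The C1q chains were macrophage genes in both macrophage classes. C1qa stood at 10210 and 5904 CPM in Kupffer-gated cells of PV-1 and PV-2 and at 6846 and 5842 in CV-1 and CV-2, against 2854, 3728, 7401 and 3760 in other macrophages of the same libraries. The ranges overlap, since the other macrophages of CV-1 lay above all but 1 Kupffer sum. C1qb averaged 4608 ± 854 in the Kupffer gate and 4323 in other macrophages (range 3142 to 6553), and C1qc 5000 ± 1075 and 2928 (range 2072 to 4911; SD, n = 4 libraries). C1qc overlapped through CV-1 too. Over the other gated classes, among sums of at least 10 cells, the highest C1q level was 79.8 CPM, that of C1qb in T cells of CV-2. A C1qa UMI was found in 99.5% of Kupffer-gated cells and 88.4% of other macrophages, against 2.79% of T cells and 2.67% of B cells, classes that should lack it.

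None of the chains passed the test between the Kupffer gate and other macrophages. In the fit over all classes, in which 12.3% of 6688 genes passed, C1qa had a log2 fold change of -0.08 ± 0.38, C1qb -0.54 ± 0.46 and C1qc 0.15 ± 0.53 (SE; edgeR adjusted p = 0.949, 0.542 and 0.926). That fit uses sums of at least 10 cells, hence Kupffer sums of PV-2 and both CV libraries, and other macrophage sums of both PV libraries. PV-2 is the only library with both, and without it C1qa had -3.22 and C1qc -4.48 (edgeR adjusted p = 0.0087 and 0.00524). A fit of these 2 classes alone on sums of at least 3 cells, chosen after seeing the data, used all 4 libraries, called 19.7% of 2023 genes and gave C1qa 0.52 ± 0.28, C1qb -0.11 ± 0.24 and C1qc 0.61 ± 0.26 (edgeR adjusted p = 0.227, 0.817 and 0.121).

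The balance of the chains differed between the classes in the same direction in each library, while the levels overlapped. Of all C1q UMIs, C1qb made up 25.6, 28.5, 28.6 and 27.8% in Kupffer-gated cells of PV-1 and PV-2 and CV-1 and CV-2, against 39.0, 37.9, 34.7 and 38.8% in other macrophages. The 2 sets of values did not overlap. The smallest sums held 4 Kupffer-gated cells in PV-1 and 6 and 7 other macrophages in CV-1 and CV-2. C1qa made up 42.5% ± 1.95 in the Kupffer gate and 37.6% ± 1.88 in other macrophages, and C1qc 29.8% ± 0.597 and 24.8% ± 1.79 (SD, n = 4 libraries). The Kupffer share minus the other was -9.97 percentage points for C1qb (SD of the difference 3.02), 4.97 for C1qa (3.47) and 5.005 for C1qc (1.99), with the same sign in 4 of 4 libraries for each chain. Counting intervals of the classes overlapped for C1qa in CV-1 and CV-2 and for C1qc in PV-1, and for C1qb in no library. The exact two-sided sign-flip test over libraries gave p = 0.125 for each chain, the smallest it can give with 4 pairs. The shares add up to the whole, so these are not 3 separate results, and 3′ counts are not corrected for how well each gene is captured.

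**Figure D2:**
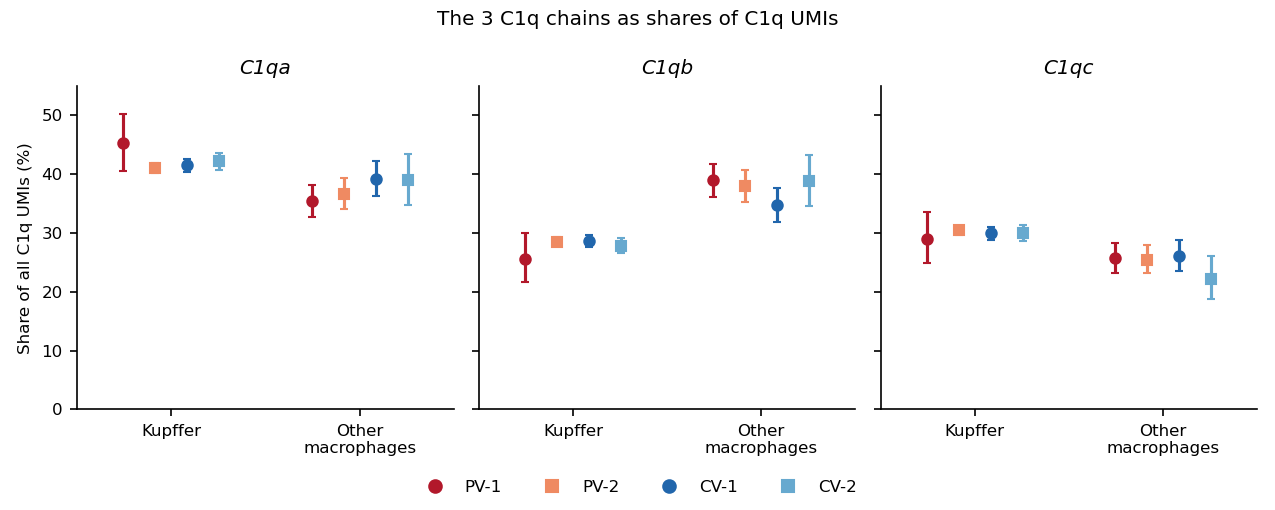
Share of each chain in all C1q UMIs (vertical axis, %) per library in Kupffer-gated cells and in other macrophages, with 95% Wilson intervals, which cover counting error only. The C1qb share lies between 25.6 and 28.6% in the Kupffer gate and between 34.7 and 39.0% in the other macrophages. The smallest sums hold 4 Kupffer-gated cells (PV-1) and 6 and 7 other macrophages (CV-1 and CV-2).

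C4b, the classical pathway component that follows C1q, was a Kupffer gene in these libraries. It stood at 384, 175, 309.7 and 256 CPM in Kupffer-gated cells of PV-1 and PV-2 and CV-1 and CV-2, against 0, 0, 0 and 39.6 in other macrophages. Every Kupffer sum lay above every sum of other macrophages. Pooled over libraries, 383 UMIs in the Kupffer gate stood against 2 in other macrophages, which is a ratio of 42.6 (counting interval 11.7 to 353), and against 0 in neutrophils, where a floor of 3 counts over the group makes the difference at least 20.8-fold. A C4b UMI was found in 54.2% of Kupffer-gated cells and in 0.253% of T cells. The difference from other macrophages passed edgeR's test (adjusted p = 0.000184), but not that of DESeq2 (adjusted p = 0.68), by which 3.51% of genes were higher in the Kupffer gate, and it was lost without PV-2. C4b has a near-identical copy, C4a, for which 1 UMI was counted in the macrophage and neutrophil classes, and how reads were split between them is uncertain.

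C3, the hub of the cascade, was low and scattered. Neutrophils had 151, 51.8, 267 and 169 CPM in PV-1 and PV-2 and CV-1 and CV-2, from 12, 2, 31 and 7 UMIs, against 109.8, 35.9, 62.4 and 50.5 CPM in Kupffer-gated cells. The ranges overlap, and the neutrophils were higher in each library. The Kupffer value of PV-1 came from 2 UMIs in 4 cells. It and the neutrophil value of PV-2 lie below the floor of 3 counts, so the order in PV-1 and PV-2 is uncertain. Other macrophages had 96.1, 48.7, 176.6 and 0. The log2 fold change of neutrophils over the Kupffer gate was 1.80 ± 0.46 (SE, edgeR adjusted p = 0.0011), and 1.36 without CV-1, where the call was lost (adjusted p = 0.0941). In that comparison 14.5% of 6688 genes were higher in neutrophils, and the median over all genes was -1.03, or -1.10 without TMM scaling and -0.61 with DESeq2.

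Single cells carried most of the C3 UMIs in other macrophages, and a smaller part in neutrophils and the Kupffer gate. The richest cells of the libraries together held 17 of 52 C3 UMIs in neutrophils, 12 of 78 in the Kupffer gate and 28 of 30 in other macrophages. A C3 UMI was found in 30.2% of neutrophils, 25.9% of Kupffer-gated cells and 11.6% of other macrophages, against 0.886% of T cells and 2% of B cells. After thinning every cell to 2000 UMIs, the shares were 23.5% in neutrophils and 7.07% in the Kupffer gate. Between the Kupffer gate and other macrophages C3 did not pass the test (-0.88 ± 0.64 on the log2 scale, edgeR adjusted p = 0.451).

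Hepatocytes make C3, C4b and C6, and hepatocyte transcripts were present in the Kupffer sums. A list of 8 hepatocyte markers summed to 329.5, 577, 446.5 and 333 CPM in Kupffer-gated cells of PV-1 and PV-2 and CV-1 and CV-2, and to 123.5, 114, 194 and 39.6 in other macrophages. All 8 markers were detected in the Kupffer gate of 3 libraries and 4 in PV-1. In the 180 Kupffer-gated cells with such a UMI and the 36 without, C3 stood at 45.5 and 52.8 CPM, C4b at 230 and 191, and C6 at 1022 and 884.

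C6, a terminal component, and Vsig4, the C3 fragment receptor, were counted in the Kupffer gate and not at all in other macrophages. C6 stood at 933.5 and 891 CPM in Kupffer-gated cells of PV-1 and PV-2 and at 1253 and 1037 in CV-1 and CV-2, and at 0 in the other macrophages of every library. Vsig4 stood at 2361, 2686, 2825 and 2585 in the Kupffer gate and likewise at 0 in the other macrophages. With the other macrophages set at a floor of 3 counts over the group, C6 (1708 UMIs) was at least 127-fold and Vsig4 (4561 UMIs) at least 338-fold higher in the Kupffer gate. Both passed edgeR's test (adjusted p = 1.9e-10 for C6 and 1.31e-13 for Vsig4). Both lost the call without PV-2 (adjusted p = 0.082 and 0.0578), and DESeq2 did not call C6 (adjusted p = 0.356).

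Per cell, a C6 UMI was found in 91.2% and a Vsig4 UMI in 93.5% of the 216 Kupffer-gated cells. Among the 43 other macrophages none had either, which allows a share of cells with a UMI of up to 6.98%. In T cells 0.759% had C6 and 1.39% had Vsig4. After thinning to 2000 UMIs, 80.4% of Kupffer-gated cells kept a C6 UMI and 96.2% a Vsig4 UMI. Neutrophils held 1 C6 and 2 Vsig4 UMIs in all, for ratios of the Kupffer gate to neutrophils of 278 (counting interval 49.9 to 11000) and 371 (103 to 3070).

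Cfp, which encodes properdin, was high in the Kupffer gate and present at a lower level in several other myeloid classes. It stood at 2800, 1937, 2314 and 2110 CPM in Kupffer-gated cells of PV-1 and PV-2 and CV-1 and CV-2, against 103, 114, 124 and 79.2 in other macrophages. The log2 fold change was 3.97 ± 0.37 (SE, edgeR adjusted p = 5.05e-12), and the sums did not overlap in any library. Neutrophils had 189, 155, 172 and 121 CPM and were lower than the Kupffer gate by 3.55 ± 0.27 on the log2 scale (edgeR adjusted p = 5.11e-16), in a comparison in which 36.3% of genes were lower in neutrophils.

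Among dendritic cells, pDC had 156, 250 and 208 Cfp CPM in PV-2 and CV-1 and CV-2, and cDC2 had 215 and 138 in PV-1 and PV-2. The cDC1 of PV-1 and PV-2 and CV-1 and CV-2 had 20.1, 45.6, 45.9 and 45.1. The cDC2 sums lay above all cDC1 sums, and the pDC, cDC2 and neutrophil ranges overlapped. The log2 fold change of cDC2 over cDC1 was 1.76 ± 0.50 (SE, edgeR adjusted p = 0.0178), where 4.59% of genes were higher in cDC2. It rested on 1 cDC2 sum of 12 cells, assumed to vary like the classes with several sums, which supply the spread, and the call was lost with DESeq2 (adjusted p = 0.13, 3.95% of genes higher), without a filter on low counts (0.0944) and with gates at 2 markers (0.726). A Cfp UMI was found in 83.9% of pDC, 73.7% of cDC2 and 39.2% of cDC1, although cDC1 were deepest at a median of 22014 UMIs, against 2.79% of T cells and 1.33% of B cells. Thinned to 2000 UMIs, the shares were 29.0% in pDC, 31.6% in cDC2 and 6.33% in cDC1. C3 was also called higher in cDC2 than in cDC1 (edgeR adjusted p = 0.0394), from 4 UMIs in 1 cell, and lost the call under 6 alternatives.

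The anaphylatoxin receptors parted neutrophils from macrophages. C5ar1, the receptor of C5a, stood at 579, 648, 818.5 and 966 CPM in neutrophils of PV-1 and PV-2 and CV-1 and CV-2, against 54.9, 80.4, 84.0 and 74.3 in the Kupffer gate. Every neutrophil sum lay above every Kupffer sum, and above the 178, 268, 159 and 79.2 of other macrophages. The log2 fold change of neutrophils over the Kupffer gate was 3.28 ± 0.25 (SE, edgeR adjusted p = 6.84e-15). C3ar1, the receptor of C3a, had no UMI in the 86 neutrophils and 327 in the Kupffer gate, at least 17.8-fold higher there with the neutrophils set at the same floor. DESeq2, by which 28.5% of genes were lower in neutrophils, did not call C3ar1, C4b or C6 between these classes. In this comparison edgeR called C5ar1 and C3 higher in neutrophils and the other 8 genes lower, beside 14.5% of all genes higher and 36.3% lower. The C1q chains were nearly absent, with 2 C1qa, 2 C1qb and 0 C1qc UMIs in neutrophils. The pooled ratio of the Kupffer gate to neutrophils was 850 for C1qa (counting interval 235 to 7020) and 581 for C1qb (161 to 4800), and C1qc was at least 413-fold higher in the Kupffer gate against the floor.

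C5ar1 also differed between the macrophage classes, and C3ar1 did not pass the test. C5ar1 was lower in the Kupffer gate than in other macrophages by 1.83 ± 0.35 on the log2 scale (edgeR adjusted p = 0.000163), although the lowest other sum, 79.2 in CV-2, fell inside the Kupffer range. The call was lost without PV-2 (adjusted p = 0.0595) and kept in the fit of the 2 classes alone (-1.39 ± 0.37, adjusted p = 0.0192). C3ar1 stood at 165, 171, 242.5 and 196 CPM in the Kupffer gate, against 432, 244, 141 and 198 in other macrophages. These ranges overlap, and the log2 fold change of -0.74 ± 0.45 did not pass the test (edgeR adjusted p = 0.342). Of the 10 genes, C4b, C6, Cfp and Vsig4 were called higher in the Kupffer gate, C5ar1 lower, and the 3 C1q chains, C3 and C3ar1 were not called, beside 6.15% of all genes in each direction. The median over the 10 genes was 0.0346, and 0.10 over all genes tested.

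Per cell, neutrophils carried C5ar1 without C3ar1 in 77 of 86 cells (89.5%) and neither in 9. Of Kupffer-gated cells, 33.3% had C3ar1 only, 6.94% C5ar1 only, 25.0% both and 34.7% neither. Of other macrophages, 30.2% had C3ar1 only, 16.3% C5ar1 only, 34.9% both and 18.6% neither. T cells had either receptor in 0.253%. Neutrophils were shallower than macrophages. After thinning to 2000 UMIs C5ar1 was found in 79.0% of neutrophils, 12% of Kupffer-gated cells and 24.4% of other macrophages. C3ar1 was then found in 29.4% of Kupffer-gated cells and 41.5% of other macrophages.

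**Figure D3:**
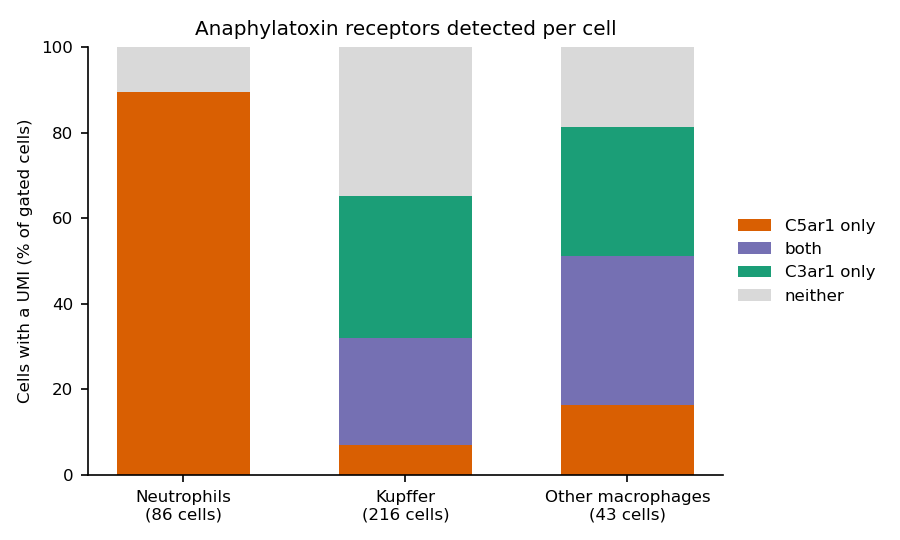
Share of cells (vertical axis, %) with a UMI of C5ar1 only, both receptors, C3ar1 only or neither, over all cells of a class and without thinning. Neutrophils show C5ar1 alone in 89.5% of cells, and both macrophage classes hold cells of all 4 kinds.

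Most complement genes met in the same Kupffer-gated cells. All 3 C1q chains were found in 208 of 216 cells (96.3%), and all 3 chains with C6, Cfp and Vsig4 in 185. The median Kupffer-gated cell showed 8 of the 10 genes, with a range of 2 to 10, and 17 cells showed all 10. The median was 4 in other macrophages, 2 in neutrophils, 1 in pDC and 0 in T and B cells. Only 8 Kupffer-gated cells had neither C6 nor Vsig4. Detection depends on depth, so a gene not seen in a cell may still be present.

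Of 39 other complement genes on a list, 14 passed the filter on low counts in the fit over classes. Between the Kupffer gate and other macrophages, 4 were higher, 3 lower and 7 did not pass, beside 6.15% of all genes called in each direction. Among the higher genes were C2, Cd55 (edgeR adjusted p = 0.000335), a membrane regulator, and Fcna, a lectin pathway ficolin that is also a gate marker. C2, which forms the classical C3 convertase with C4, had 211 UMIs in the Kupffer gate and 1 in other macrophages. Itgam and Itgax, the alpha chains of complement receptors 3 and 4, and Cd93 were lower in the Kupffer gate, with log2 fold changes of -2.12 ± 0.56 for Itgam, -6.28 ± 0.54 for Itgax and -4.44 ± 0.62 for Cd93. The median over the 14 was 0.20.

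Between neutrophils and the Kupffer gate, 4 of the 14 were higher and 6 lower, beside 14.5% of all genes higher and 36.3% lower. The higher ones were receptors: Itgam by 3.61 ± 0.39, Itgax by 3.28 ± 0.79, their partner chain Itgb2 by 1.21 ± 0.24, and C5ar2, the other receptor of C5a, by 1.85 ± 0.61 on the log2 scale (SE; edgeR adjusted p = 4.57e-11, 0.000489, 3.23e-05 and 0.0102). Of these, C5ar2 stood at 113, 104, 25.9 and 193 CPM in neutrophils of PV-1 and PV-2 and CV-1 and CV-2, against 0, 32.6, 24.0 and 32.7 in the Kupffer gate. Neutrophils had no UMI of C2 or Cfb. Between cDC2 and cDC1, 1 gene, Itgam, was higher and none lower. The terminal components Hc, C7, C8a, C8b and C9 and the protease Cfd had no UMI in the Kupffer gate, other macrophages or neutrophils. C8g, the gamma chain of C8, had 0, 6, 3 and 1 UMIs in the Kupffer gate of PV-1, PV-2, CV-1 and CV-2, against 0, 1, 0 and 0 in other macrophages.

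The genes most like each pattern over 26 sums of class and library were listed by Pearson's r of log2(CPM + 10), over 9607 genes, as a description. The sums share libraries and depth. Among the genes nearest to the mean of the C1q chains was C3ar1 (0.973). C6 was nearest to Vsig4 (0.992), Paqr9 (0.987) and the gate marker Timd4 (0.986). Vsig4 was nearest to C6, Slc45a3 (0.988) and Slc1a3 (0.987), and C4b to Tsku (0.9997), Thrb (0.998) and Slc1a3 (0.997). C5ar1 was nearest to Cxcl2 (0.966), Cd300lb (0.965) and Emilin2 (0.954), and C3 to Hacd4 (0.929), Ehd1 (0.922) and Pla2g7 (0.915). C3ar1 was nearest to Ccl2 (0.978), Fblim1 (0.974) and C1qc (0.970), and Cfp to Tnfrsf21 (0.902), Creg1 (0.895) and Gpx1 (0.895).

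The zones were compared first in Kupffer-gated cells, where no gene of the set passed the test. PV-1 was left out of the fit for its 4 cells, so the PV arm is 1 sum, assumed to vary like the CV pair that gives the spread between libraries. The log2 fold changes of PV-2 over both CV libraries were -0.12 ± 0.24 for C1qa, -0.09 ± 0.25 for C1qb, -0.08 ± 0.25 for C1qc, -0.21 ± 0.27 for Cfp, -0.03 ± 0.26 for Vsig4 and -0.00 ± 0.35 for C5ar1. C6 had -0.38 ± 0.29, C3ar1 -0.39 ± 0.31 and C3 -0.68 ± 0.42. The lowest estimate was that of C4b, at -0.72 ± 0.32, with an unadjusted p of 0.0238. All edgeR adjusted p-values were 0.999, 0.15% of 6003 genes passed, and 196 genes had an unadjusted p under 0.05. The median over all genes was -0.0153. With shared barcodes kept, when PV-1 had 64 Kupffer-gated cells, the estimates of C1qa, C1qb, C1qc and C5ar1 lay above 0.

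**Figure D4:**
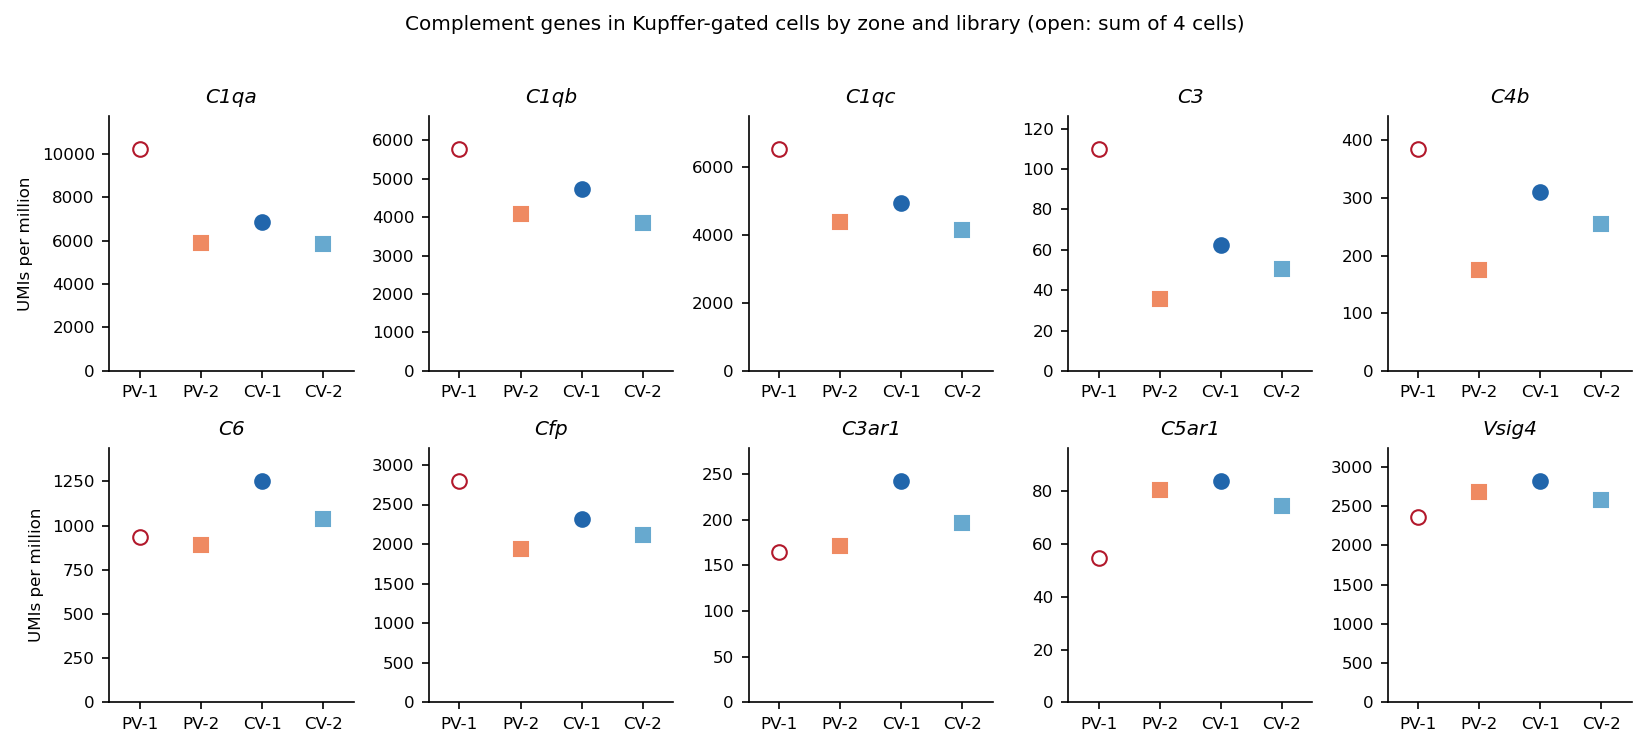
Level of each complement gene (vertical axes, CPM, each from 0) in Kupffer-gated cells of PV-1 and PV-2 and CV-1 and CV-2, 1 point per library. PV-1, drawn open, is a sum of 4 cells, and it lies above the other 3 for the C1q chains, C3, C4b and Cfp.

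Among the 39 other complement genes, 10 were tested between the zones in the Kupffer gate and 1 passed. This was Cd55, which speeds the decay of C3 convertases, at 494 and 78.3 CPM in PV-1 and PV-2 (9 and 72 UMIs), against 298 and 101 CPM in CV-1 and CV-2 (124 and 34 UMIs). PV-1, which is outside the fit, was the highest and PV-2 the lowest, so the PV libraries lay on opposite sides of the CV pair. The log2 fold change of PV-2 over the CV libraries was -1.41 ± 0.33 (SE, edgeR adjusted p = 0.0217), a call that was lost under 7 alternatives, with DESeq2, by which 0.0167% of genes passed, among them. With the 4 cells of PV-1 brought into the fit, it was -0.98 (adjusted p = 0.999, 0.0197% of genes passing). Cfb, the alternative pathway protease, had -0.80 ± 0.33 and did not pass.

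In all macrophages together, PV-1 stood apart from the other libraries. C6 stood at 104 and 781 CPM in PV-1 and PV-2, against 1103 and 872 in CV-1 and CV-2. C4b stood at 42.7 and 153, against 273 and 220, and Vsig4 at 262 and 2353, against 2487 and 2175. For C6 and C4b both PV sums lay below both CV sums, and PV-1 was by far the lowest for each of the 3 genes. C5ar1 stood at 165 and 105, against 93.0 and 75.0, with both PV sums above. How many of all genes separate the zones in this way was not counted, so these orders do not show a zone difference. Of the macrophages of PV-1, 4 of 20 were Kupffer-gated, against 118 of 133 in PV-2 and 55 of 61 and 39 of 48 in CV-1 and CV-2. These counts depend on the barcode step. With shared barcodes kept they were 64 of 91 in PV-1, 147 of 169 in PV-2, 91 of 104 in CV-1 and 83 of 100 in CV-2. The part of this makeup in the zone values was not tested, since the fit of the Kupffer gate given above leaves PV-1 out.

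None of the 10 genes passed the test in macrophages, where 0.0% of 5562 genes passed with edgeR, 0.036% (2 genes) with DESeq2, and 99 had an unadjusted p under 0.05. The log2 fold changes of PV over CV were -1.15 ± 0.46 for C4b, -1.11 ± 0.67 for C6, -0.84 ± 0.55 for Cfp and -0.82 ± 0.73 for Vsig4, and 0.67 ± 0.39 for C5ar1 and 0.46 ± 0.46 for C3ar1 (SE; edgeR adjusted p = 0.999 each). Those of the C1q chains were -0.37 ± 0.39, -0.18 ± 0.37 and -0.35 ± 0.39, and that of C3 was -0.01 ± 0.53. Without PV-1, C4b had -0.71, C6 -0.37, Cfp -0.20 and Vsig4 -0.01, and C3ar1 turned to -0.29. Without PV-2, when 366 genes passed, C6 had -3.10, Vsig4 -2.995, C4b -2.37 and Cfp -2.10 (edgeR adjusted p = 8.31e-06, 9.3e-07, 0.00319 and 6.43e-05), C3ar1 1.04 (0.0497), and C3 0.85.

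**Figure D5:**
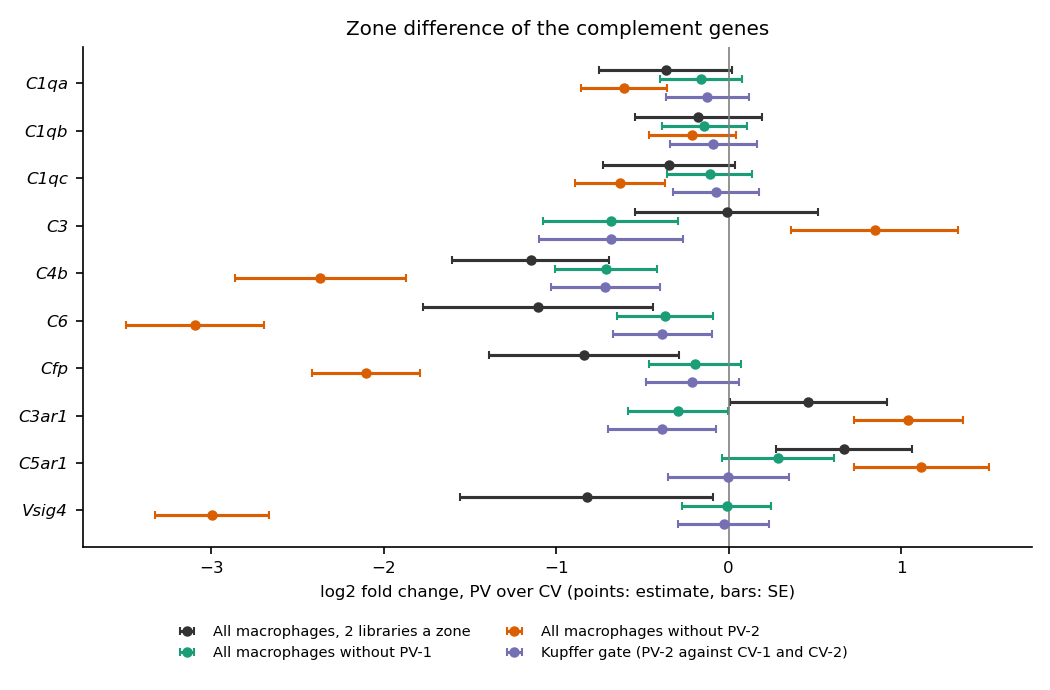
Log2 fold change of PV over CV (horizontal axis) for each complement gene, as estimate with SE, in all macrophages, without PV-1, without PV-2, and in the Kupffer gate. For C6, Vsig4, C4b and Cfp the estimates without PV-2, which set PV-1 against CV, lie between -3.10 and -2.10. Those of the Kupffer gate, which set PV-2 against CV, lie between -0.72 and -0.03. Those of all macrophages without PV-1 lie between -0.71 and -0.01.

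Shares of macrophages with a UMI followed the levels. After thinning to 2000 UMIs, C4b was found in 5.56 and 23.5% of macrophages of PV-1 and PV-2, against 36.5 and 36.8% in CV-1 and CV-2 (18, 119, 52 and 38 cells). C5ar1 was found in 27.8 and 18.5%, against 11.5 and 10.5%, and C6 in 11.1 and 66.4%, against 69.2 and 68.4%. The exact two-sided permutation p was 0.333 for each of these genes, the smallest that 2 against 2 libraries allow, so these shares do not show a zone difference. Without thinning, the C6 shares overlapped, at 15.0 and 82.7% against 80.3 and 72.9%. Without PV-1, the C6 shares differed by 2.44 percentage points, with PV lower.

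Outside macrophages, zone tests were possible for few of the genes, and none passed. In neutrophils, where 0.0% of 846 genes passed and 25 had an unadjusted p under 0.05, the log2 fold changes of PV over CV were -0.51 ± 0.31 for C5ar1, -0.98 ± 0.61 for C3 and 0.22 ± 0.54 for Cfp (SE, edgeR adjusted p = 0.999 each). Both PV sums of C5ar1 in neutrophils, 579 and 648, lay below both CV sums, 818.5 and 966. Such an order was not counted over all genes either, and it does not show a zone difference. In cDC1, where 0.0% of 3695 genes passed and 247 had an unadjusted p under 0.05, Cfp had -0.52 ± 0.47 (adjusted p = 0.926). In T cells, where 0.0122% of 8192 genes passed, 3 genes of the set were tested, with a median log2 fold change of -0.863. The C1q sums of T cells in PV-2 and CV-2 came largely from single cells, while in PV-1 and CV-1 the richest cell held 1 of 5 and 9 of 24 UMIs. Of 151 and 228 C1q UMIs in T cells of PV-2 and CV-2, 107 and 213 lay in 1 cell each, with 6 and 5 of the 8 macrophage markers beside 8 and 7 T markers.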

How the data were processed

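The deposited matrices, 1 a library, hold whole UMI counts that were not normalized, from 10x Chromium Next GEM 3′ v3.1 libraries per the labels' protocols. Per the submitters' processing notes, the authors used Cell Ranger 4.0.0 and mm10. Totals were 3063778 UMIs in PV-1, 4373488 in PV-2, 2741760 in CV-1 and 2916638 in CV-2. Symbols were matched for 32158 identifiers.

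Cells with at least 200 genes and at most 10% mitochondrial UMIs were kept, each barcode only in the library with at least 70% of its UMIs. Scrublet in scanpy 1.11.5 marked 2, 7, 1 and 2 cells as doublets, which stayed in and were left out as an alternative. A class took cells with at least 3 markers of its list and at least 2 more than any other lineage. Libraries of a zone were not duplicates: in T cell sums, chi-square was 2.66 times its degrees of freedom in PV and 3.21 times in CV.

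Counts were summed per library and class and tested with edgeR 4.0.16 (quasi-likelihood, TMM, filterByExpr, Benjamini-Hochberg at 0.05) in R 4.3.3. Zone tests compare PV with CV. Class contrasts came from 1 fit with class and library terms over sums of at least 10 cells. DESeq2 1.42.0 and the further alternatives are reported in the closing part, and the tests were tried on simulated data. Shares have 95% Wilson intervals and a count of 0 allows 3 counts, for counting error only. The genes and lists were chosen with earlier results of these data known. All 10 genes are named, and of the other complement genes at most 4 per comparison that passed, by smallest p. Cfb, C2, C4a, C5ar2, Cfd, the integrins and the terminal genes were also named, after their values were seen. A few genes of these lists are not reported here.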

Additional observations from a re-analysis of the deposited data

Results flagged for a closer look

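C3 and C4b also appeared in the 90 cells that took no class, data that the comparisons do not use. Ungated cells held 108 C3 UMIs in PV-2 and 20 in CV-2, and 43 C4b UMIs in PV-2, 5 in CV-1 and 36 in CV-2, each above the limit that a count of 0 allows.

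A single cell of PV-2, with 23432 UMIs, held 67 of the 108 C3 UMIs and 15 of C4b. It also had 61 C1qa, 59 C1qb, 48 C1qc and 20 Cfp UMIs, no C6, Vsig4, C3ar1 or C5ar1, and 400 Cxcl9, 380 Ccl24 and 176 Ubd UMIs. It showed 5 of 8 markers each of the Kupffer, macrophage and mature dendritic cell lists. All 36 C4b UMIs of CV-2 lay in 1 cell of 15715 UMIs, which had 6 C6, 1 C3 and no C1q UMIs, and 330 Dcn, 199 Cxcl12 and 42 Col3a1 UMIs. Dcn and Col3a1 encode a proteoglycan and a collagen of the extracellular matrix. The genes listed for both cells were chosen after their values were seen, and whether either barcode held more than 1 cell was not tested.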

How the results depend on the processing

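Of the values for single genes under the alternatives, 829 counted as the same. Of the rest, 34 log2 fold changes changed sign, 28 lost the call, 6 gained it and 12 shares moved by more than their spread. Among the 829 were 118 shares that moved by less than their spread, whatever their sign, and the others kept direction and call. The share difference of Vsig4, PV minus CV, counted as the same although it went from -25.92 to 7.768 percentage points without PV-1. With shared barcodes kept or at least 1000 UMIs per cell, the thinned shares were those of the main setting. They rested on the same 18, 119, 52 and 38 thinned macrophages of PV-1, PV-2, CV-1 and CV-2, so these settings could not change them. With shared barcodes kept, 91, 169, 104 and 100 macrophages were gated, and the added ones did not enter the thinned shares. How these shares depend on the barcode step was therefore not tested, although these values count among the 118. For the zones in macrophages, 2 genes passed with DESeq2, 59 with no filter on low counts, 5 with the replicate block and 1 without doublets, against 0. In the Kupffer gate, 1 passed with DESeq2, gates at 2 markers, shared barcodes kept or sums of at least 3 cells, 5 without TMM and 4 at the 5% mitochondrial limit, against 9. In the other classes, 6 passed with DESeq2, 54 with no filter, 38 with the replicate block and 0 with shared barcodes kept, against 1. Whether libraries of the same replicate number form pairs is not known. The correlation of their deviations was 0.0424 in macrophages and 0.142 in T cells, which cannot decide this with 2 libraries per zone. With only the compared classes, chosen after seeing the data, 399 genes passed for the Kupffer gate against other macrophages, 1117 for neutrophils against the Kupffer gate and 183 for cDC2 against cDC1, in place of 822, 3399 and 418; fewer genes were tested.

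Sign changes lay mostly near 0. In macrophages, C3 had 0.19 with DESeq2, 0.17 with the replicate block and 0.0407 without doublets. In the Kupffer gate, C1qa had 0.0577 with shared barcodes kept and 0.0672 with sums of at least 3 cells, C1qb 0.16 with shared barcodes kept, C1qc 0.0367 and 0.00313 under the same settings as C1qa, and C5ar1 0.0255 without TMM, 0.00853 with no filter, 0.0636 with gates at 2 markers and 0.0595 with shared barcodes kept. Cfp in cDC1 had 0.62 with gates at 2 markers. Kupffer gate over other macrophages, C1qa had 0.0644 without TMM, 0.11 with no filter, 0.45 with gates at 2 markers, 0.55 with shared barcodes kept, 0.54 with sums of at least 3 cells and 0.52 with only the compared classes, C1qb 0.27 with gates at 2 markers and 0.0456 with shared barcodes kept, and C1qc -0.53 with DESeq2.

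Leaving out 1 library at a time gave 0 to 366 genes for the zones in macrophages, 56 to 134 in the other classes, 309 to 767 for the Kupffer gate against other macrophages, and 3 to 10 of the genes without overlap in shares, where 1 library against 2 cannot go below an exact permutation p of 0.333. Overlap of shares was not checked over all genes. The 3 to 10 genes therefore have no background to be read against, and they do not show a zone difference. C1qb ranged from -0.40 to 0.0687, C3 from -0.68 to 0.85 and C3ar1 from -0.29 to 1.04 in macrophages, and Cfp from -0.0105 to 0.30 in neutrophils and from -1.085 to 0.0377 in cDC1. Kupffer gate over other macrophages, C1qa ranged from -3.22 to 0.62, C1qb from -2.54 to 0.0469 and C1qc from -4.48 to 0.82. The causes were not tested. The Kupffer zone fit without PV-2 or a CV library or with the block, and cDC2 against cDC1 without PV-2, could not be fitted. Small sums limit depth: 4 Kupffer-gated cells in PV-1 and 12 cDC2 in PV-2.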
